A study of Mus musculus with 48 samples.

Results

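RNA levels in the blood and in the medial prefrontal cortex (mPFC) of the same mouse were set against each other, gene by gene, over 24 mice. All 48 of the 48 arrays of the series entered, as 24 mice with 1 blood array and 1 mPFC array each. Of 55681 array probes that are not controls, 18215 (13068 with a gene symbol, 10525 symbols in all) were well above background on all 48 arrays and were kept. The question was whether a mouse with a high level of a transcript in blood, compared with the other mice of its own group, also had a high level in the mPFC, a comparison that leaves aside every difference between the groups.

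The mice were female C57BL/6J animals, 17 weeks old, in 4 groups of 6. Control mice had a sham operation and no stress, CUMS mice had a sham operation and 6 weeks of chronic ultra-mild stress (CUMS), OVX mice were ovariectomized without stress, and OVX+CUMS mice were ovariectomized and stressed. Blood came from the vena cava under pentobarbital and was spun down, so the RNA is that of the cell pellet, and the mPFC was dissected from a coronal slice taken just afterwards. In such bulk samples fewer cells of a type and less RNA per cell cannot be told apart.

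Blood is often sampled in place of a brain that cannot be reached, on the view that some transcripts vary together in both tissues. Mice of an inbred strain share nearly all of their genome, so differences between mice of 1 group can come from physiology, handling, cell composition and measurement. Transcripts that could link the tissues include those of circulating cells, which are also present in the vessels of a dissected brain sample, those set by a hormone that reaches both, and those that an inherited or acquired difference sets in every tissue.

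The blood array and the mPFC array of a mouse lay at the same place on their slides. Each tissue filled 3 slides of 8 arrays, in 2 rows of 4 columns, and within each tissue the mean of every group on every slide was subtracted. This gave 6 sets of mice: 6 control and 2 CUMS mice on slide 1, 4 CUMS and 4 OVX mice on slide 2, and 2 OVX and 6 OVX+CUMS mice on slide 3. In a set of 2 mice the centred values are mirror images, and 17 degrees of freedom were left for each correlation. Blood arrays were dimmer and more uneven: the 75th percentile of the signal lay between 54.9 and 192 in blood and between 572 and 689 in the mPFC, and 21 blood arrays and 0 mPFC arrays carried the scanner software's mark for evaluation.

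Some of the strongest correlations came from probes whose signal followed the place of the array, and their sequences are shown first. The probes were placed by the array headers on mouse genome mm9 (NCBI37). Capitals mark the copies of the longest stretch that a probe repeats without overlap within its own 60 bases. The probe for a long intergenic non-coding RNA on chromosome 5 lay at chr5:34713023-34713082 on the minus strand, with a GC content of 76.7% and no repeat. The probe for Gm11559, which belongs to a keratin-associated protein family, lay at chr11:99726135-99726194 on the plus strand, with a GC content of 71.7% and a 17-base stretch in 2 copies. A further copy of that stretch, not marked, overlaps both. The probe for a non-coding RNA region on chromosome 10 lay at chr10:126829481-126829540 on the plus strand, with a GC content of 65.0% and a 24-base stretch in 2 copies. The probe for the transcript ENSMUST00000144750 lay at chr8:27199700-27199759 on the plus strand, with a GC content of 53.3% and no repeat.
Chromosome 5 non-coding RNA probe: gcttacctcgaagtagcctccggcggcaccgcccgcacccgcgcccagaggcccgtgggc
Gm11559 probe: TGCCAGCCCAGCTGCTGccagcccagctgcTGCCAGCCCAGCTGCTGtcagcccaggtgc
Chromosome 10 non-coding RNA probe: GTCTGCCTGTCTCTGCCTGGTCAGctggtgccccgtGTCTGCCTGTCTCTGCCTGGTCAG
ENSMUST00000144750 probe: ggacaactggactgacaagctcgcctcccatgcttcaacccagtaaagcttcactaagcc

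On average over probes, the level in blood was not detectably related to that in the mPFC of the same mouse. The mean Pearson correlation (r) over the 18215 probes was -0.0219 (permutation p = 0.395, two-sided). In 100000 draws that re-paired blood with mPFC at random within group and slide, 95% of the means lay between -0.0492 and 0.0483. Such draws are called mismatched pairings here, although a draw can leave some mice with their own mPFC. The mean r depended on the processing. With a term for the position of the array it was -0.0551 (permutation p = 0.0338), and with the replicate number as a block -0.0573 (permutation p = 0.0464). These permutations shuffled values from which the term had already been removed in both tissues. Mismatched pairings then vary less than unrelated true pairs would, and these p-values can be too low. Under 4 other settings the sign of the mean r was positive. Of all probes, 46.5% had an r above 0. The r values spread slightly more widely than in most mismatched pairings, with an SD over probes of 0.265 against 0.217 to 0.276 in 100 of them. By group, the mean r was 0.00500 in control, -0.0311 in CUMS, 0.0722 in OVX and -0.0702 in OVX+CUMS mice.

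**Figure D1:**
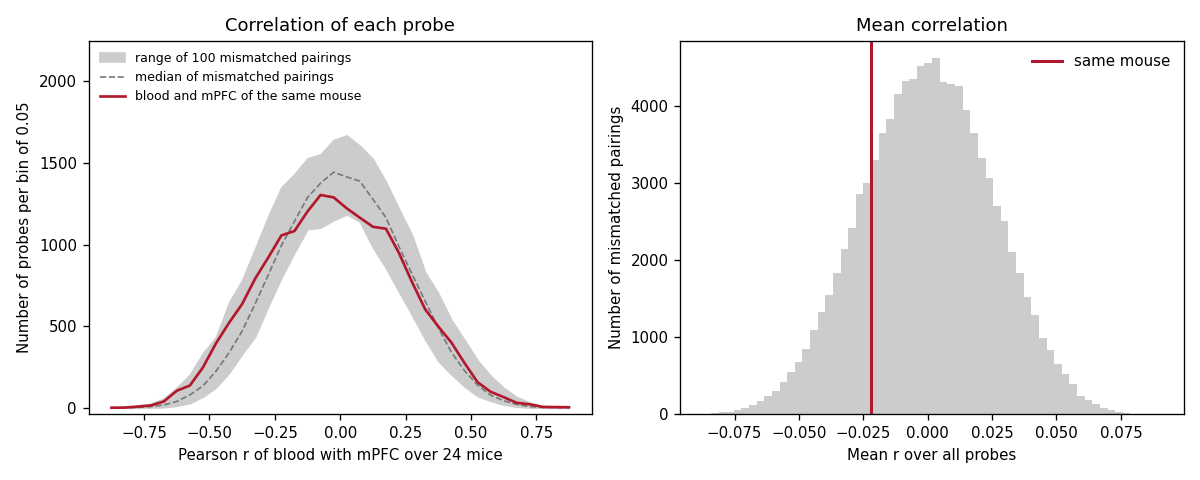
Left, number of probes (y axis) by the r of blood with mPFC over 24 mice (x axis). The red line gives the true pairs. The grey band (range) and the dashed line (median) give 100 mismatched pairings, drawn at random within group and slide. Right, the mean r over all probes in mismatched pairings (grey bars) and in the true pairs (red line at -0.0219), which lies inside the grey bars.

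Whole profiles were compared as well. For each mouse, the centred blood profile was correlated across probes with its own mPFC profile and with those of the other mice of its set; probes are not independent, so these values serve only to compare pairs. The own correlation averaged -0.00252 ± 0.0943 (SD, n = 24 mice), and ranged from -0.191 in OVX+CUMS mouse 6 to 0.208 in OVX mouse 4. It exceeded the mean of mismatched mice by -0.00752, within the mismatched interval of -0.0516 to 0.0512 (permutation p = 0.781). With a position term the difference was -0.0605 (permutation p = 0.0232, which can be too low for the reason given above). Centred by group alone it was 0.0817 (permutation p = 0.0248). The blood of 6 of 24 mice was most like the mPFC of the same mouse within its set, and 6 would be so if the tissues were unrelated. The own correlation of the 12 stressed mice (-0.0406 ± 0.0811, SD) was lower than that of the 12 unstressed mice (0.0356 ± 0.0940) by a difference of -0.0762, which did not pass adjustment over the stress and surgery comparisons (permutation p = 0.0447, adjusted p = 0.0895). The 12 ovariectomized mice differed from the 12 sham-operated mice by 0.00762 (permutation p = 0.849). Both tests treated the mice as independent, but the 2 mice of a small set share 1 value (-0.0569 for CUMS mice 1 and 2, -0.0311 for OVX mice 5 and 6). Centring also links the mice of larger sets, so these p-values do not rest on 12 against 12 independent mice.

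**Figure D2:**
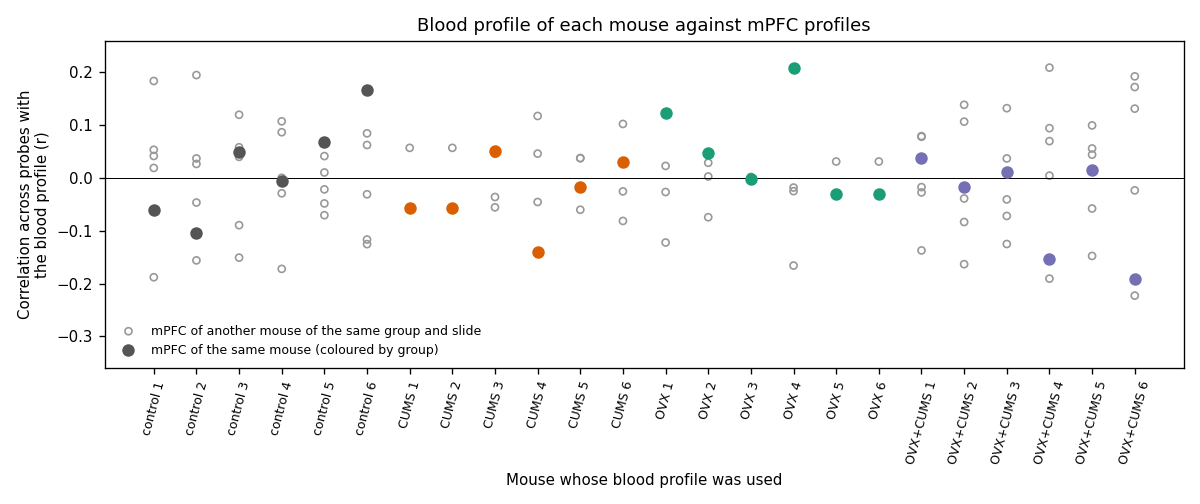
Correlation across probes (y axis) of the blood profile of each mouse (x axis) with its own mPFC profile (filled points, coloured by group) and with the mPFC of other mice of the same group and slide (open circles). The own values lie between -0.191 and 0.208 and among the open circles.

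The main axes of variation in the 2 tissues were compared next. The first 5 principal components took 30.6, 15.7, 11.5, 10.1 and 6.80% of the centred variation in blood and 24.2, 12.3, 8.46, 6.80 and 5.90% in the mPFC. None of the 25 pairs of components passed adjustment by permutation, and 1 pair had an unadjusted p below 0.05, blood component 5 with mPFC component 1 (r = -0.621, permutation p = 0.00461, adjusted p = 0.115; Spearman rho = -0.566, permutation p = 0.0140, adjusted p = 0.35; r = -0.462 without the 2 mice farthest from the median). Without control mouse 1 this count was 1 pair, with an adjusted p of 0.0342 by permutation. The blood component 2, led by the granulocyte genes Wfdc17, Ifitm1, Lrg1, Chil1 and Lcn2, had its highest r with mPFC component 4 (0.393, permutation p = 0.0965, adjusted p = 0.67), which was -0.00811 without OVX+CUMS mouse 5 and control mouse 2. OVX+CUMS mouse 5 scored 0.859 on it, and the scores of the other mice lay between -0.242 and 0.203. Slopes of mPFC on blood were also compared between stressed and unstressed mice and between ovariectomized and sham-operated mice. The linear model called 0 probes for stress (957 at an unadjusted p below 0.05) and 0 for surgery (1076), out of 18215.

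Single probes were tested with a linear model across all 18215 and Benjamini-Hochberg adjustment. This called 5 probes positive, 0.0274% of those tested, and 0 negative; at an unadjusted p below 0.05 the same model gave 614 positive (3.37%) and 898 negative (4.93%) probes. In 100 mismatched pairings the same rule called 0 to 4 positive probes (median 0), and the highest r of any probe lay between 0.713 and 0.902, a range that holds the highest r of the true pairs, 0.868. With a permutation p for every probe in place of the model, 0 were called (618 positive at an unadjusted p below 0.05), and the smallest adjusted p was 0.298. The 5 probes were those of Oas1a, Ide, S100a9, Gm11559 and the chromosome 5 non-coding RNA. The count fell to 3 without control mouse 4 or CUMS mouse 4, to 2 without OVX mouse 3, OVX mouse 4 or OVX+CUMS mouse 5, and to 1 without OVX+CUMS mouse 6. The 5 had different patterns over mice and are described in turn.

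Ide encodes the insulin-degrading enzyme, a protease that clears insulin and amyloid peptides. Its probe lay at chr19:37343642-37343701 on the minus strand. In blood, on the log2 scale relative to the 75th percentile of the array, Ide was -0.30 to 0.44 (median -0.15) in control mice, -1.54 to -0.18 (median -0.72) in CUMS mice, -0.76 to 0.08 (median -0.54) in OVX mice and -1.22 to -0.30 (median -0.52) in OVX+CUMS mice. In the mPFC the Ide level was 1.40 to 1.87 (median 1.48) in control mice, 0.82 to 1.70 (median 1.64) in CUMS mice, 0.76 to 1.58 (median 0.91) in OVX mice and 0.86 to 1.67 (median 1.51) in OVX+CUMS mice. The groups overlapped in both tissues.

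The centred values gave r = 0.865 for Ide (adjusted p = 0.0162 in the linear model, unadjusted permutation p = 0.00067), rho = 0.837 (permutation p = 0.00052) and r = 0.849 without the 2 mice farthest from the median in blood. The slope was 0.65 ± 0.09 (SE) log2 units in the mPFC per log2 unit in blood. Ide was called in 23 of the 24 fits that left out 1 mouse, and lost the call without OVX+CUMS mouse 6 (r = 0.841, adjusted p = 0.0762). Of 18 other settings it was called in 9. The call was lost when centred by slide alone (r = 0.561), with a position term (0.868, with fewer degrees of freedom), a column term (0.863) or the replicate block (0.836), with Spearman correlation, permutation p-values or the first component removed, and with the array percentile as a covariate, and a signal minimum of 50 on all arrays removed the probe. Its r was 0.0314 when blood was set against the mPFC arrays at the same place on other slides.

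In the mPFC the Ide levels fell into 2 ranges. In 8 mice they lay between 0.76 and 1.06, and in the other 16 between 1.40 and 1.87, with a gap of 0.34 log2 units between the ranges and no gap above 0.17 elsewhere. The lower range held 0 control, 1 CUMS, 5 OVX and 2 OVX+CUMS mice. In all 3 sets of mice that had members in both ranges, every mouse of the lower range had less Ide in blood than every mouse of the upper range. On slide 3 the OVX+CUMS mice 5 and 6, low in the mPFC, had -0.92 and -1.22 in blood, against -0.61 to -0.30 in mice 1 to 4. OVX mouse 2, the single OVX mouse in the upper range, had 0.08 in blood, against -0.76 to -0.53 in OVX mice 1, 3 and 4 of its slide. CUMS mouse 2 had -1.54 in blood and 0.82 in the mPFC, and CUMS mouse 1 on the same slide had -0.18 and 1.51. Within the ranges r was 0.689 over the 16 upper mice (permutation p = 0.0804; rho = 0.302, permutation p = 0.310; r = 0.0662 without 2 mice) and -0.0860 over the 8 lower mice (permutation p = 0.834; rho = -0.214, permutation p = 0.75). The ranges were set after the values were seen, and narrowing the range of a variable lowers r, so these values do not tell how much of the pooled r each range carries.

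The Ide probe was dim in blood, with a median signal of 83.6 against 1744 in the mPFC, and its scaled blood level moved with the 75th percentile of the blood array (r = 0.677), as did its mPFC level (r = 0.501). With that percentile as a covariate r was 0.649 and the call was lost (adjusted p = 0.812). Set against the unscaled blood signal, the mPFC level of Ide had r = 0.780. The part of the percentile in the result was not tested. For genes near Ide on the chromosome, the r of blood with mPFC was 0.104 for Fgfbp3, 0.144 for Btaf1, 0.0334 for Tnks2 and at most 0.234, for a probe of Marchf5. With the unscaled blood signal r was 0.481 for Fgfbp3, and at most 0.158, for Hhex, in the other neighbours. Within the mPFC, the centred levels of Fgfbp3 and Ide had r = 0.463 over 24 mice. OVX+CUMS mice 5 and 6, both low in Ide there, had the lowest (0.13) and the highest (0.80) mPFC level of Fgfbp3 in their group.

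**Figure D3:**
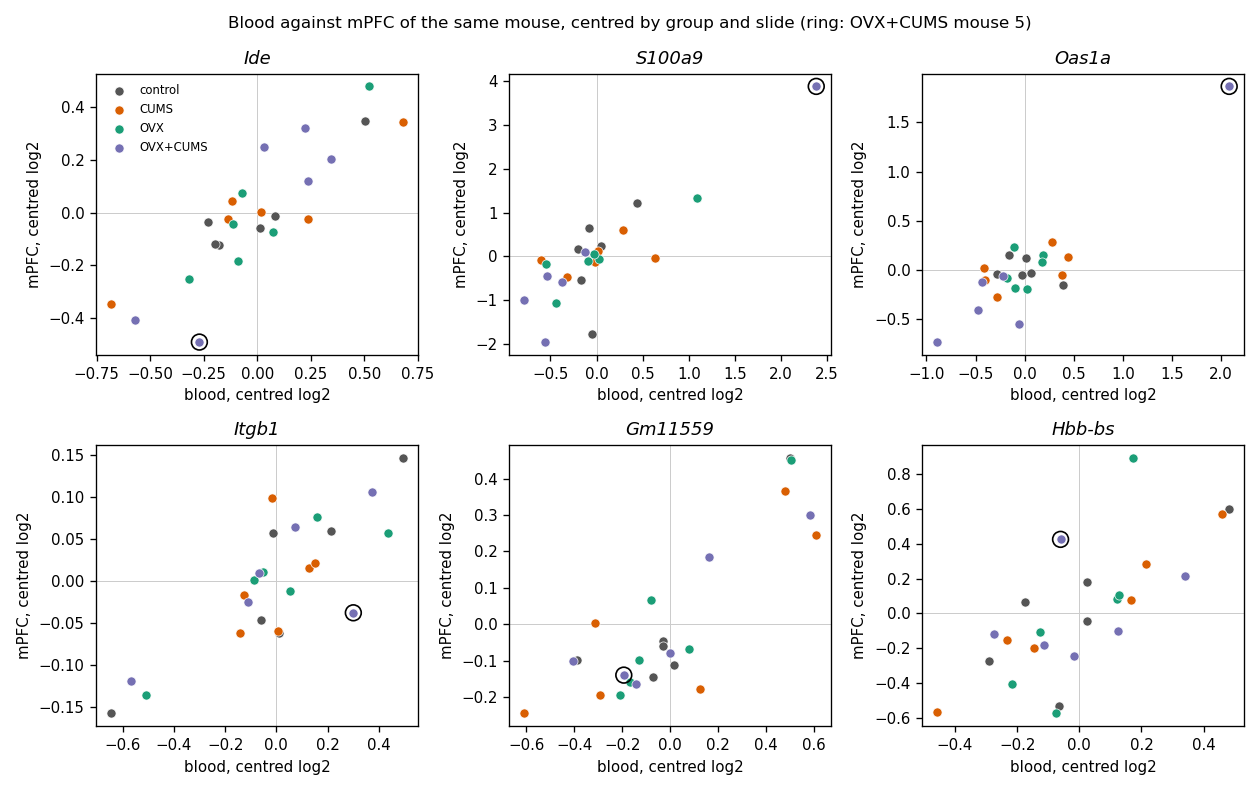
Blood (x axis) against mPFC (y axis) of the same mouse for 6 genes, in log2 units after the mean of each group and slide was subtracted; points are mice, coloured by group, and the ring marks OVX+CUMS mouse 5. Ide and Itgb1 spread along a line in many mice, S100a9 and Oas1a are stretched by the ringed mouse (without it r was 0.583 and 0.333), and Gm11559 falls into a lower and an upper cloud.

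The correlations of S100a9 and Oas1a were much lower without OVX+CUMS mouse 5. S100a9, a calcium-binding protein that neutrophils carry in bulk (chr3:90496573-90496632, minus strand), was 11.17 in the blood of that mouse against 7.87 to 9.51 in the other 23, and 2.10 in its mPFC against -5.49 to -1.56. The r of S100a9 was 0.851 (adjusted p = 0.0228 in the linear model, permutation p = 0.00082), rho was 0.731 (permutation p = 0.00074), and r fell to 0.583 without this mouse and to 0.411 without it and OVX mouse 4. Oas1a, an antiviral oligoadenylate synthetase induced by interferon (chr5:121348338-121348397, minus strand), was 2.27 in the blood of OVX+CUMS mouse 5 against -0.71 to 0.82 in the others, and -1.54 in its mPFC against -4.14 to -3.12. The r of Oas1a was 0.868 (adjusted p = 0.0162 in the linear model, permutation p = 0.0148), rho was 0.514 (permutation p = 0.0385), and r was 0.333 without that mouse. The other Oas1a probe gave r = 0.0802. In both genes that mouse lay outside the range of the other 23 in both tissues. Both probes were dim in the mPFC, with a median signal of 83.1 for S100a9 (15.3 in control mouse 1) and 51.8 for Oas1a (35.0 in OVX+CUMS mouse 4). A signal minimum of 50 on all arrays removed both.

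Without OVX+CUMS mouse 5 the linear model called 2 of 18215 probes (0.011%), Ide and Itgb1. Itgb1, the beta chain shared by many integrins with which cells hold on to matrix, was 1.07 to 2.31 in blood and -0.92 to -0.21 in the mPFC. In control mice the mPFC level of Itgb1 was lowest in mouse 2 (-0.92), which also had the lowest blood level (1.07), and highest in mouse 6 (-0.62), which had the highest blood level (2.21). OVX mouse 3 and OVX+CUMS mouse 3 were likewise lowest of their groups in both tissues. Over all 24 mice r was 0.815 (adjusted p = 0.0656 in the linear model, permutation p = 0.00015), rho was 0.720 (permutation p = 0.00076), and r was 0.873 without OVX+CUMS mouse 5. A second Itgb1 probe gave r = -0.178, so the relation held for 1 of the gene's 2 probes kept.

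Gm11559 and the chromosome 5 non-coding RNA, whose probes are shown above, followed the place of the array. In the blood arrays of the outer column 4 (positions 4 and 8, 6 arrays) the centred value of Gm11559 averaged 0.47 against -0.16 in the 18 other arrays, and in the mPFC 0.33 against -0.11. For the chromosome 5 RNA the averages were 0.73 against -0.24 in blood and 0.56 against -0.19 in the mPFC. In both tissues and for both probes, all 6 arrays of column 4 lay above the highest of the other 18. The r of 0.846 for Gm11559 (adjusted p = 0.0228 in the linear model, permutation p = 0.00029; rho = 0.690, permutation p = 0.00546) became 0.0416 with a term for position, and blood set against the mPFC of other mice at the same place on other slides gave 0.754. The r of 0.837 for the chromosome 5 RNA (adjusted p = 0.0284 in the linear model, permutation p = 0.00032; rho = 0.671, permutation p = 0.0042) became -0.0982 with that term and was 0.779 for other mice at the same place. The correlation of these 2 probes was thus nearly as high between different mice at 1 place as within a mouse.

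The chromosome 10 RNA (r = 0.687, -0.283 with a term for position) and ENSMUST00000144750 (r = 0.796, 0.00894 with the term) behaved likewise, although neither was called. ENSMUST00000144750 averaged 1.29 in column 4 of the mPFC slides against -0.43 elsewhere. Position passed the test in the mPFC for 83 of 18215 probes (0.456%) and in blood for 0 (1710 and 804 at an unadjusted p below 0.05, linear model). The 83 probes had the same median GC content as all probes kept, 45%, and 4 of them (4.82%) repeated a stretch of at least 15 bases, against 0.911% of all probes kept (the same 4, against 1.51% and 2.35%, for at least 12 and 10 bases); the difference was not tested. Because mice were placed on the slides in label order, with no exchange of places between the tissues, position and mouse can be told apart only by comparing slides. Over all probes the mean r between different mice at the same place was 0.0169 in 48 pairs.

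**Figure D4:**
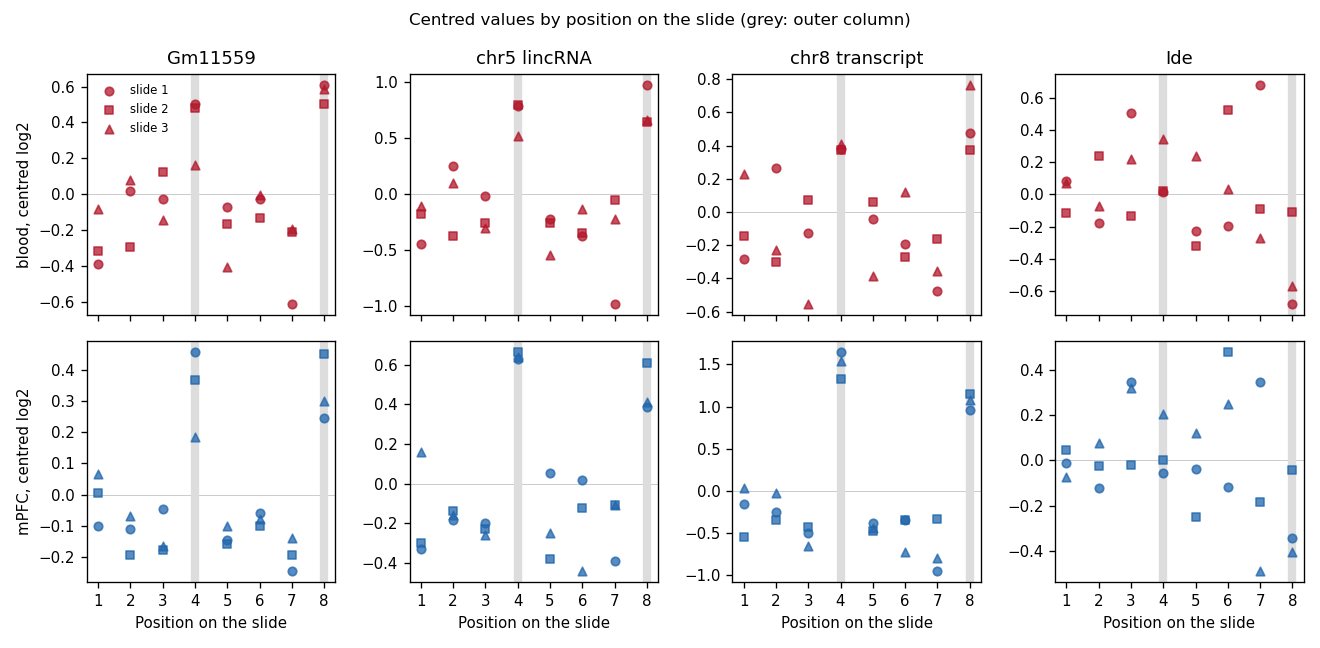
Centred log2 value (y axis) by position of the array on its slide (x axis), for blood (upper row, red) and mPFC (lower row, blue), with 1 symbol shape per slide and grey bars at the outer column, positions 4 and 8; the chr8 transcript is ENSMUST00000144750. In the first 3 columns all arrays at positions 4 and 8 lie above all others in both tissues, and Ide, in the last, shows no such order.

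Erythroid genes, the transcripts of red cells and of the reticulocytes that still make globin, had unlike values. Their 18 probes had a median r of 0.246, within -0.385 to 0.379 in 100 mismatched pairings, with 14 above 0, 0 called and 8 positive at an unadjusted p below 0.05 (adjusted p of 0.227 for Hbb-bs and 0.274 for Alas2 in the linear model). The r was 0.727 for the beta globin Hbb-bs, 0.724 for Hbb-b2, 0.723 for the alpha globin Hba-a2, 0.703 for Alas2 (the first enzyme of haem synthesis in red cells) and 0.627 for Fech (the last). Car2, a carbonic anhydrase of red cells (-0.349), a probe of the mitochondrial iron carrier Slc25a37 (-0.286) and Tspo2 (-0.204) had negative values. In the mPFC, Hbb-bs was 0.35 to 1.49 (median 0.90) in control, 0.90 to 2.04 (median 1.10) in CUMS, 0.18 to 2.12 (median 0.73) in OVX and 0.93 to 1.6 (median 1.07) in OVX+CUMS mice. In blood it was 11.54 to 12.32 (median 11.81), 11.86 to 12.78 (median 12.16), 10.94 to 11.79 (median 11.47) and 11.33 to 11.95 (median 11.57) in the same order.

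The blood values of the globins moved with the scaling. Before the 75th percentile was subtracted, the log2 signal of Hbb-bs in blood spanned only 18.51 to 18.66, with an SD of 0.04 within sets of mice against 0.24 after it, and 0 of its spots were saturated. The scaled blood value of Hbb-bs was almost wholly the percentile turned around (r = -0.988), and the unscaled blood signal had r = 0.0754 with the mPFC (permutation p = 0.730). With the unscaled blood signal r was -0.485 for Hba-a2 (permutation p = 0.0309) and -0.197 for Alas2 (permutation p = 0.304), while Fech kept 0.567 (permutation p = 0.00346; rho = 0.431; r = 0.363 without 2 mice), and the median of the 18 erythroid probes was -0.0241. The mPFC level of Hbb-bs was itself related to the percentile of the blood array of the same mouse (r = -0.753, permutation p = 0.00044; rho = -0.786, permutation p = 0.00024; r = -0.676 without 2 mice) and not detectably to that of its own mPFC array (r = 0.0488). Alas2 gave -0.74 and Hba-a2 -0.762 with the blood percentile, and the median of the 18 probes was -0.479. Others of the list went the opposite way, Tspo2 at 0.579 (permutation p = 0.00143) and Ermap at 0.474 (permutation p = 0.0739). An r under -0.74 with the blood percentile occurred in 0.0714% of all probes. The relation was chosen from many after its values were seen, and its cause was not tested.

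Neutrophil genes had the highest median r of the 34 lists examined, 0.437 over 10 probes, against -0.0244 over all probes kept. Of the 10, 1 was called (S100a9) and 8 had an r above 0. Lcn2, an iron-withholding protein of neutrophil granules, had r = 0.804 (adjusted p = 0.0776 in the linear model), but rho was 0.434 (permutation p = 0.0864) and r was 0.197 without OVX+CUMS mouse 5, whose Lcn2 was 6.96 in blood against 2.46 to 4.16 in the other mice and 1.03 in the mPFC against -3.07 to -1.42. Lrg1, a glycoprotein of granulocytes and of the acute phase, kept r = 0.617 without that mouse, from 0.731. Stfa2 was lowest of the list at -0.172. A Camp probe was -0.449 without OVX+CUMS mouse 5, while another Camp probe was 0.442 to 0.586 with 1 mouse left out at a time. The median of the neutrophil list was 0.321 without that mouse, and -0.264 to 0.356 in 100 mismatched pairings of all 24. Of the 25 genes of the list, 9 were measured on all arrays. Monocyte genes (11 probes, 0 called) had a median of 0.239, which was -0.0221 without OVX+CUMS mouse 5. Microglia genes, which mark the resident macrophages of the brain, had 0.0847 and -0.130 in the same comparison (14 probes, 0 called).

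MHC class I genes, which present peptides on nearly every nucleated cell, showed small positive values that did not depend on that mouse. Of 21 probes of the class I heavy chains and their loading machinery, 20 had an r above 0, 0 were called, and the median was 0.332, or 0.323 without OVX+CUMS mouse 5. In 100 mismatched pairings the median of this list lay between -0.283 and 0.250. H2-Q10 (0.509), H2-Q5 (0.453), H2-D1 (0.449) and H2-T22 (0.449) were highest, and H2-Q8 (-0.311) was the single negative member. The heavy chain genes include near-identical copies whose probes can share transcripts. The values of the list rose and fell together within each tissue (mean r between members 0.539 in blood and 0.434 in the mPFC), so the 21 probes are not 21 observations. Class II genes had a median of -0.0184 (8 probes, 0 called). With a term for position, which leaves 10 degrees of freedom, the class I median was 0.455 and the neutrophil median 0.263, and other lists changed sign: class II to 0.305, microglia to -0.0109, the clock genes to -0.0802 and interferon-stimulated genes to -0.221.

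Genes that glucocorticoid hormones raise in many tissues had a median of 0.152 (21 probes, 0 called), or 0.154 without OVX+CUMS mouse 5, within -0.148 to 0.173 in mismatched pairings. After Lcn2, Cebpd was highest (r = 0.646, permutation p = 0.0110, adjusted p = 0.382 in the linear model), followed by the metallothionein Mt2 (0.339) and by Fkbp5 (0.321), a co-chaperone of the glucocorticoid receptor. Cebpd was 0.467 without OVX+CUMS mouse 5, and Mt2 was -0.0545 without OVX mouse 3 and 0.0591 by Spearman correlation. The immediate early gene list had a median of -0.146 and the clock gene list 0.0537, with 0 called in each. Interferon-stimulated genes had a median of 0.0135 over 40 probes, so Oas1a, the 1 member called, stood apart from its list, in which Oas1b (-0.525) was lowest.

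Most probes of the ribosomal protein and proteasome lists had a negative r, with 0 called in either list. The 180 probes of cytosolic ribosomal proteins had a median r of -0.233, with 41 above 0, 0 called, and 28 negative and 2 positive at an unadjusted p below 0.05, against 4.93% and 3.37% of all probes. The 51 probes of proteasome subunits had a median of -0.304, with 10 above 0, 0 called and 10 negative at an unadjusted p below 0.05; Psme2, an activator subunit, was lowest at -0.647. In 100 mismatched pairings the medians lay between -0.204 and 0.236 for the ribosomal and between -0.349 and 0.360 for the proteasome list. Members of both lists moved together within a tissue, with a mean r between members of 0.277 in blood and 0.485 in the mPFC for ribosomal and of 0.423 and 0.420 for proteasome genes. The lowest single genes were Arfgef1, an exchange factor of vesicle traffic (r = -0.797, adjusted p = 0.0824 in the linear model), the kinase Tbk1 (-0.776), Pebp1 (-0.773) and Scaf8 (-0.769), none of them called.

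**Figure D5:**
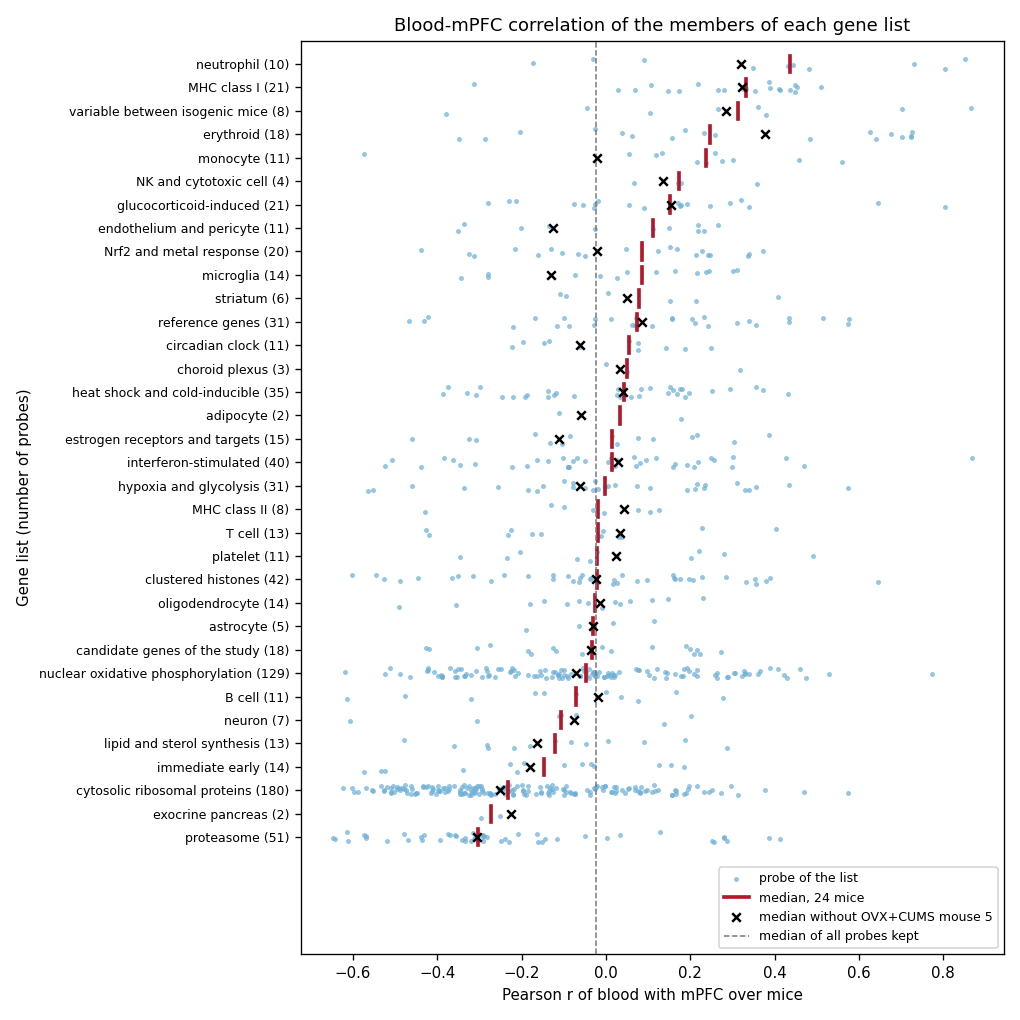
The r of blood with mPFC (x axis) for each probe (blue points) of 34 gene lists (y axis, number of probes in brackets), with the list's median over 24 mice (red bar) and without OVX+CUMS mouse 5 (cross); the dashed line is the median of all probes kept, -0.0244. The neutrophil and MHC class I medians lie at 0.437 and 0.332, and the ribosomal and proteasome medians at -0.233 and -0.304.

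Of 14 genes that the study followed as candidate blood markers, 11 were measured on all arrays, by 18 probes. Cidec, Rnase1 and Styxl1 were not, so of the markers that the paper finally selected only Slc36a1 was covered. With 1 mouse left out at a time, r was 0.0446 to 0.158 for 1 Slc36a1 probe and -0.172 to 0.0817 for the other. None of the 18 was called, 0 reached an unadjusted p below 0.05 in the linear model, and their median was -0.0327. The highest were Rpl23a (0.272), Banp (0.224) and Rps2 (0.215), and the lowest was Bcl11b, a transcription factor (-0.419 and -0.426 by its 2 probes). Banp was -0.0384 without OVX mouse 4 and Rpl23a 0.130 without control mouse 2, and with a position term Rpl23a was -0.100 and Rps2 -0.419. Probes of 1 gene disagreed for Rpl23a (0.272 and -0.0100) and Rps2 (0.215 and -0.275). These values concern differences between mice of 1 group and not the group differences for which the genes were picked.

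Genes with several probes gave a measure not tied to 1 probe sequence. Over 3101 pairs of probes of the same gene, the median r was 0.623 within blood and 0.478 within the mPFC. With 1 array per mouse and tissue, what such probes share from the mouse and from the array cannot be told apart. Between a blood probe and another mPFC probe of the same gene the median was -0.0390 in 6202 pairs. Of 2126 genes with 2 or more probes, 6 had every probe above 0.5. Among them were Fyb (0.609 and 0.699), an adaptor of T cells and platelets, Adgre1 (0.604 and 0.726), the macrophage surface protein F4/80, the inflammatory caspase Casp4 (0.567 and 0.604), the deubiquitinase Usp16 (0.533 and 0.649) and the histone H3f3a (0.519 and 0.524). Without OVX+CUMS mouse 5 the values of Casp4 were 0.0972 and 0.0544, those of Fyb 0.428 and 0.458, and that of the higher Adgre1 probe 0.486. With the array percentile as a covariate, the values of Usp16 were 0.0535 and 0.337, and those of H3f3a 0.216 and -0.127. Under the alternative settings the values of Fyb, Adgre1 and Casp4 stayed at 0.282 or above. None of these probes was called, and in 258 genes the probes differed in r by more than 0.5.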

How the data were processed

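RNA of 24 mice was measured on 48 one-colour Agilent arrays, 1 blood and 1 mPFC array per mouse, and the labels name the partner of each array. The authors deposited the intensity of each spot as the processed signal of Feature Extraction (version 10.7.3.1 per the file headers), from which background was already subtracted and which was not scaled between arrays. The authors also deposited log2 values shifted by the 75th percentile of each array; apart from 1 constant per array, they lay within 0.001 log2 of those computed here at 100% of 55249 probes with 1 spot. For the present comparison the intensities were log2-transformed and averaged per probe, and each array was shifted by its 75th percentile over probes other than controls. Probes well above background on all 48 arrays were kept, 18215 of 55681; a blood array alone had 23576 to 34838 such probes and an mPFC array 31582 to 38055, and the number of arrays limits the precision. Symbols came from a RefSeq table (GRCm38.p6, names only; 26856 probes) and otherwise from the array, 32972 probes in all.

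The mean of each tissue, group and slide was subtracted, and blood was correlated with mPFC per probe (Python 3.11.15, numpy 2.4.6, scipy 1.17.1), with a linear model, Benjamini-Hochberg adjustment at 0.05 over all probes, and two-sided permutation tests that re-paired mice within group and slide (100000 draws, so the smallest p is 1e-05). The genes named are those called, else the 12 highest and 8 lowest by r, those whose several probes were all high, the top 2 and lowest of each list, and the study's candidates; the neighbours of Ide, erythroid genes and probes that follow position were chosen after their values were seen. The members and lists were chosen with earlier results of these data known. Alternatives were quantile normalization, normexp (offset 50), another percentile, the authors' values, filters, spot marks, other centrings, position, replicate number, the array percentile as covariate, removal of the first component, Spearman correlation, moderated spread (limma 3.58.1 in R 4.3.3), and each mouse left out. The steps were tested on simulated data.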

Additional observations from a re-analysis of the deposited data

Results flagged for a closer look

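In each group of 6 mice, the highest or lowest log2 level of the genes described was set against the other 5. Among 92 groups tested, 18 values stood apart from the rest of their group by more than the usual limit, where chance flags about 1 in 20 groups (4.6 of 92). That rate is no yardstick here, since most of these genes were chosen for a high r, which a mouse extreme in both tissues raises.

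OVX+CUMS mouse 5 gave 6 of them: Oas1a at 2.27 in blood (others -0.71 to 0.13) and -1.54 in the mPFC (others -4.14 to -3.46), S100a9 at 11.17 in blood (others 8.00 to 8.66) and 2.10 in the mPFC (others -3.74 to -1.69), and Lcn2 at 6.96 in blood (others 2.60 to 3.52) and 1.03 in the mPFC (others -2.56 to -1.75).

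Ide gave 4: OVX mouse 2 at 0.081 in blood (others -0.76 to -0.48) and 1.58 in the mPFC (others 0.76 to 1.06), CUMS mouse 2 at 0.82 in the mPFC (others 1.51 to 1.70) and control mouse 3 at 1.87 in the mPFC (others 1.40 to 1.51).

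Probes that follow the place of the array gave 5, all from mice in the outer column of the slide. Gm11559 was 3.55 in the blood of OVX mouse 4 (others 2.83 to 3.02), -0.96 in its mPFC (others -1.66 to -1.51) and -0.55 in the mPFC of control mouse 4 (others -1.15 to -1.05). ENSMUST00000144750 was -0.35 in the mPFC of control mouse 4 (others -2.51 to -2.15) and -0.72 in that of OVX mouse 4 (others -2.86 to -2.20).

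The remaining 3 were Oas1a in the mPFC of CUMS mouse 2 at -3.86 (others -3.35 to -3.12), Itgb1 in the mPFC of OVX mouse 3 at -0.46 (others -0.33 to -0.25) and Lcn2 in the blood of control mouse 2 at 3.73 (others 3.13 to 3.34).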

How the results depend on the processing

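The mean r stayed within what mismatched pairings gave under most settings, but its sign did not hold. It was 0.01003 with quantile normalization, 0.0736 when centred by group alone, 0.0105 when centred by slide alone and 0.0115 with the array percentile as a covariate (permutation p of 0.162 to 0.697). With a term for position it was -0.0551 (permutation p = 0.0338). Permutation p-values with a term for position or replicate number can be too low, because values already freed of the term were shuffled. With the replicate number as a block, which names mice by label and partly follows position, the mean r was -0.0573 (permutation p = 0.0464) and 0 probes were called positive (372 at an unadjusted p below 0.05); a number shared by mice of separate groups marks no common animal. The matched minus mismatched profile correlation was 0.0352 with quantile normalization, 0.00386 with the percentile over probes detected on all arrays, 0.0817 when centred by group alone (permutation p = 0.0248), 0.0235 by slide alone, 0.0262 with the array percentile as a covariate, 0.00659 without the sets of 2 mice and -0.0605 with a term for position (permutation p = 0.0232). Group centring leaves slide differences in both tissues, and it called 53 positive probes and 1 negative. The positive count was 2 with a signal above 50 on all arrays, 3 with the array percentile, 3 without the sets of 2 mice, 19 of 55681 probes with no filter (2 negative), and 0 with a position term, with a column term, with Spearman correlation, with permutation p-values, with the first component of each tissue removed, or, as the median, in mismatched pairings; by unadjusted p below 0.05 these gave 454 to 618 positive probes. The cause of these shifts was not tested. Leaving out 1 mouse at a time gave a mean r of -0.0309 to -0.00868, a profile difference of -0.0213 to 0.00591, 1 to 6 positive and 0 to 1 negative probes, 0 to 1 pairs of components, a stress difference of -0.0890 (without control mouse 2, adjusted p = 0.0348) to -0.0605, and a surgery difference of -0.0112 to 0.0251. In the adjusted p of the stress difference, linked mice again count as independent. Single genes changed sign as follows: Hbb-bs to -0.0743 with quantile normalization and to -0.131 with the array percentile, Hbb-b2 to -0.123 with quantile normalization, Scaf8 to 0.185 when centred by group alone, the chromosome 5 RNA to -0.0982 with a position and -0.203 with a column term, the chromosome 10 RNA to -0.283 and -0.207, and ENSMUST00000144750 to -0.198 with a column term. The column term, the unscaled blood signal, the ranges of Ide, pairs at 1 place, and list medians without OVX+CUMS mouse 5 were added after the data were seen. Dim blood signal, and 24 mice, limit what correlation could be detected.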
